A study of Mus musculus with 10 samples.

Results

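The comparison set iKCs that overexpressed miR-342-3p against iKCs with a vector in which miR-342-3p was mutated. The labels give iKCs as a cell line, and the organism is mouse. It held 5 of the 10 libraries of the series, 3 with overexpression and 2 with the mutated control, chosen by their titles. The other 5 libraries carried sponge vectors, 3 for miR-342-3p and 2 with a scrambled sequence; a sponge is a transcript with sites that bind and occupy a microRNA. Cells of all groups were detached with trypsin and sorted by mOrange fluorescence and viability before bulk sequencing of their RNA. The titles number the libraries of a group as biological replicates. No source used here says whether they came from separate cultures, so a p-value covers the spread between libraries, which may be technical. The promoter of the vectors and the bases changed in the mutated control are not stated there either.

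A microRNA binds messenger RNAs mainly through its seed, the stretch near its 5′ end, and a match to the seed in a 3′ untranslated region (UTR) lowers the stability and translation of the message. Each match type has a name: an 8mer pairs with bases 2 to 8 of the microRNA and has an A opposite its first base, a 7mer-m8 lacks that A, and a 7mer-A1 keeps the A but not the pair at base 8. Kupffer cells are the resident macrophages of the liver, and the series title concerns macrophages of liver metastases and an inflammatory phenotype. Macrophages receive signals through cytokine, chemokine, lectin and G protein-coupled receptors, and they release proteases and chemokines in turn.

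The RefSeq hairpin of mouse miR-342 (GRCm38.p6, chr12:108658620-108658718, plus strand) is shown with the mature 3p strand in capitals, and each mature strand with its seed in capitals, because the sites below were searched from that seed. The hairpin lies inside the gene Evl.
Mir342: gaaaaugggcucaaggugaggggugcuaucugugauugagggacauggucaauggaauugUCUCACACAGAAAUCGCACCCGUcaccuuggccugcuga
mmu-miR-342-3p: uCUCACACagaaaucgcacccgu
mmu-miR-342-5p: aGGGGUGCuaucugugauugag

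Mir342, the hairpin, was the targeted gene. It had 8.22, 11.3 and 9.41 CPM (the read count scaled to a common library size) in the overexpression libraries, against 2.86 and 3.22 CPM in the mutated control libraries. The groups did not overlap, and no read fell on the hairpin in the 5 sponge and scramble libraries. Evl, an actin regulator and the host gene, had 92.8, 82.1 and 81.4 CPM with overexpression and 83.9 and 90.8 CPM in the mutated control, so its groups overlapped. Since the mutated bases are not stated, fewer transcripts and fewer reads that align to the unmutated hairpin cannot be told apart in the mutated control. The RNA was polyadenylated, so the hairpin reads measured transcripts that contain the hairpin, not mature miR-342-3p.

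All libraries carried the RNA of macrophages. The 12 general macrophage markers were all above 1 CPM, and their summed level was 6254 to 6939 CPM with overexpression and 6923 to 7370 CPM in the mutated control. Of 15 Kupffer cell markers 11 reached 1 CPM, among them the complement genes C1qa, C1qb and C1qc, whereas Clec4f and Timd4, which define Kupffer cells in the mouse liver, had 0 counts in all 5 libraries; the summed level was 4565 to 5202 CPM with overexpression and 4313 to 4512 CPM in the mutated control. None of 10 hepatocyte markers reached 1 CPM, nor did any of 10 neutrophil and erythroid markers. Of 10 endothelial markers 5 did, led by Vwf (von Willebrand factor) with 95.6, 118 and 127 CPM with overexpression and 148 and 128 CPM in the mutated control. The endothelial sum was 119 to 153 CPM with overexpression and 158 to 180 CPM in the mutated control, Clec4g had 0 counts, and Kdr was the marker called lower; the part of these markers in the results was not tested. Of 10 stellate and 10 lymphocyte markers, Acta2 and Cd4 were those that reached 1 CPM. Library totals in the series ran from 25713110 to 59260772 counts, and both of these extremes were overexpression libraries, replicate 3 and replicate 1.

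Few genes passed the test, and about as many were higher as lower. Of 15767 genes tested, 85 were called at a Benjamini-Hochberg adjusted p of 0.05 in edgeR's quasi-likelihood test, which is 0.539% of the genes; 39 were higher with overexpression (0.247%) and 46 lower (0.292%). In all 85 the groups did not overlap, but this was so for 38.2% of all tested genes, so separation of the groups was common. At an unadjusted p of 0.05, 2874 genes passed (18.2%). Counts for the gene lists below stand against these shares, and against the 48.8% of all tested genes with a log2 fold change above 0. Without either mutated control library edgeR called 0 genes, with 1430 (without replicate 1) and 1578 (without replicate 2) at an unadjusted p of 0.05. The control is then 1 library that is assumed to vary like the other groups. The log2 fold change of Wasl, the gene with the smallest p, was −0.80 without replicate 1 and −0.82 without replicate 2, against −0.81 with both. Other genes moved more. Over all alternative settings with the mutated control as control, Wasl ran from −0.83 to −0.73, Il6 from −2.36 to −1.67 and Rn18s-rs5 from −1.19 to −0.71. Without overexpression replicate 2 edgeR called 6 genes and without overexpression replicate 3 it called 279. With only the 5 libraries of the comparison it called 34, of which 28 were among the 85. DESeq2 called 500. The 85 genes kept their direction whenever a library was left out.

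**Figure D1:**
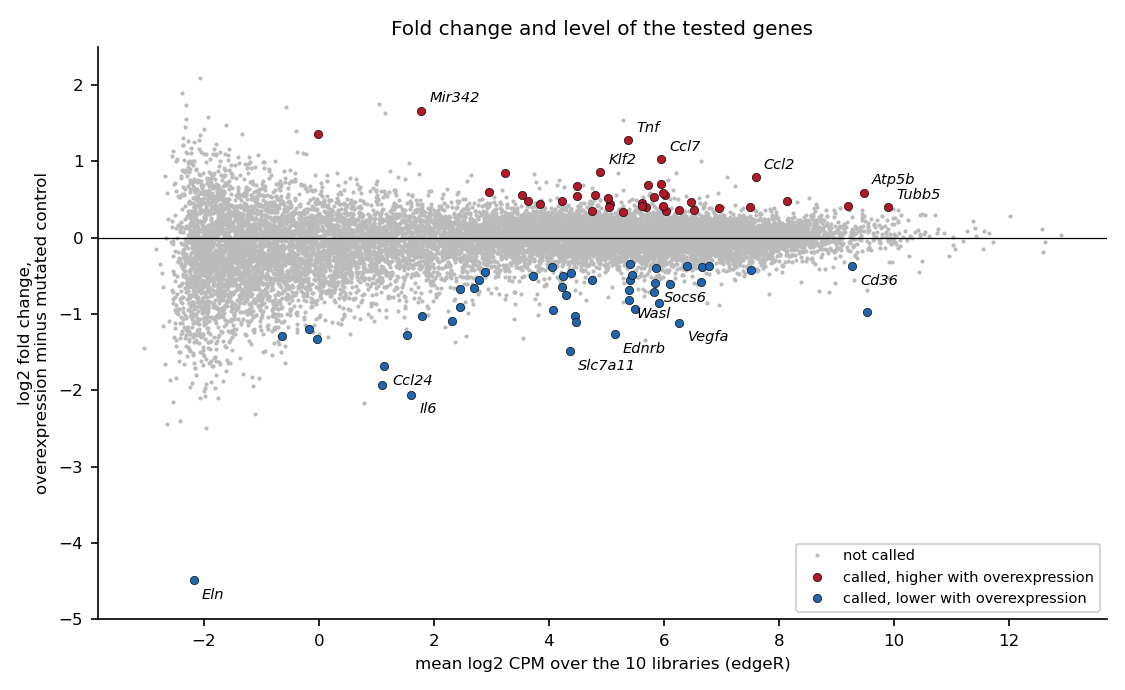
Each point is a tested gene, with its mean log2 CPM over the 10 libraries on the x axis and the log2 fold change of overexpression minus mutated control on the y axis; called genes are red (39 higher) or blue (46 lower). Called genes lie across the range of levels; Eln, at the bottom left, had 1 count with overexpression.

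Overexpression replicate 1 stood apart from the other libraries of the comparison. On the first principal component of the 5 libraries, which held 67.5% of the variance, it lay at −22.7, while overexpression replicates 2 and 3 lay at −6.26 and 4.88 and the mutated control libraries at 12.2 and 11.8. Its ratio to the mutated control followed gene length. In the shortest of 5 bins of genes by exonic length the median log2 ratio to the mutated control mean was 0.22 in replicate 1, 0.05 in replicate 2 and −0.01 in replicate 3; in the longest bin it was −0.23, −0.04 and 0.00. The part of this trend in single results was not tested, apart from 2 alternatives. With offsets that remove the trend edgeR called 207 genes, including 83 of the 85, and without replicate 1 it called 58, including 47 of the 85.

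**Figure D2:**
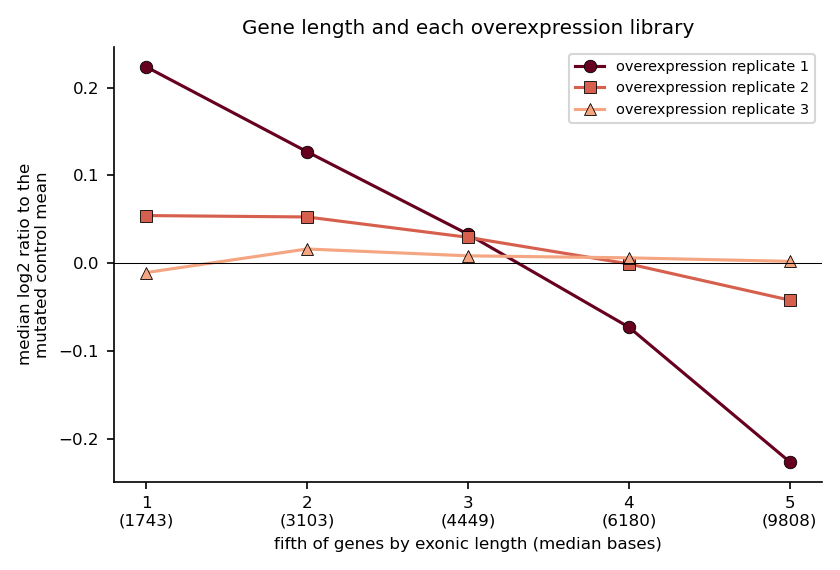
The x axis gives 5 bins of genes by exonic length, with the median length in bases, and the y axis the median log2 ratio of each overexpression library to the mean of the mutated control. The line of replicate 1 slopes down from 0.22 to −0.23, while the lines of replicates 2 and 3 stay between −0.04 and 0.05.

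Of the 5 genes with the smallest p, 4 had an 8mer match to the seed of miR-342-3p and were lower with overexpression: Wasl, Socs6, Ednrb and Slc7a11. A 3′ UTR was found for 12073 tested genes, and 575 of them held an 8mer. All 8 called genes with an 8mer were lower with overexpression, which is 1.39% of the 8mer genes. Called lower were 0.356% of all genes with a UTR and 0.252% of the 9143 genes without any site. By UTR length, in 5 bins, 6 of the 8 lay in the fourth bin and 2 in the longest. In the fourth bin 4.26% of 141 8mer genes were called lower, against 0.512% of 1952 genes without an 8mer or 7mer-m8. In the longest bin these shares were 0.669% and 0.334%. The shorter bins held 0 called 8mer genes. The 8 were Wasl, Ednrb, Socs6, Slc7a11, H2aw, Zfp367, Cd36 and Cpped1. Their sites are shown, apart from that of Socs6, because they are the bases the seed would pair with; each line gives the 22 bases before the site and the 8mer in capitals, on the transcript strand of GENCODE vM21 (GRCm38).
Slc7a11: cacgagtgtacaaacatgtgatGTGTGAGA
Ednrb: gctagcagaaaggtgtgcgcgcGTGTGAGA
Wasl: atcaacaagggagtttaattatGTGTGAGA
H2aw: tgtcaggttctggttaaactagGTGTGAGA
Cd36: ttgttataattttatagcagcaGTGTGAGA
Zfp367: ctgtaaacactgaagcagagcaGTGTGAGA
Cpped1: ctacgggtgttttctaattgtgGTGTGAGA

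The sites lay in different parts of the UTRs. In Ednrb the 8mer began 119 bases into a UTR of 2441 bases, in Wasl at base 285 of 2480, in Cpped1 at base 208 of 1636 and in Zfp367 at base 448 of 2296. In H2aw it began at base 669 of 1700, in Cd36 at base 1153 of 1660 and in Slc7a11 at base 6981 of 7364. Of the 7 printed sites 5 lay within the first 39.4% of the UTR.

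Wasl, which encodes N-WASP, an activator of the actin-nucleating Arp2/3 complex, had 29.996, 31.0 and 30.1 CPM with overexpression and 53.9 and 52.9 CPM in the mutated control. The 5 sponge and scramble libraries lay between these groups, at 39.4 to 47.3 CPM. Its log2 fold change was −0.81 (SE 0.08, edgeR adjusted p = 0.00560), and it passed under 17 of 22 alternative settings. Of 39 tested genes of actin nucleation and podosomes it was the one called. Fmnl1, a formin, had a log2 fold change of 0.21 (SE 0.05, edgeR adjusted p = 0.116). Arpc2, a subunit of the Arp2/3 complex, had 0.23 (SE 0.09). The highest log2 fold change in this list was 0.23 and the median 0.05.

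Ednrb, the type B endothelin receptor, had 20.04, 20.003 and 25.3 CPM with overexpression and 50.8 and 53.1 CPM in the mutated control, with the sponge and scramble libraries at 31.5 to 44.2 CPM. Its log2 fold change was −1.26 (SE 0.13, edgeR adjusted p = 0.00560). Ece1, the protease that makes active endothelins from their precursors, had 53.6, 62.5 and 60.6 CPM with overexpression and 35.6 and 37.5 CPM in the mutated control (a log2 fold change of 0.69, SE 0.08, edgeR adjusted p = 0.00738). These were the 2 tested genes of the endothelin system, 1 called lower and 1 called higher. For Ece1 the sponge and scramble libraries, at 53.2 to 57.4 CPM, lay with the overexpression libraries and away from the mutated control.

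Socs6, a SOCS-box adaptor that acts downstream of receptor tyrosine kinases, had 42.7, 44.2 and 41.9 CPM with overexpression and 65.1 and 65.0 CPM in the mutated control (a log2 fold change of −0.60, SE 0.06, edgeR adjusted p = 0.00560). The sponge and scramble libraries, at 58.9 to 69.1 CPM, overlapped the mutated control. Cpped1, a metallophosphoesterase, had 31.2, 32.8 and 34.3 CPM with overexpression and 41.0 and 42.1 CPM in the mutated control (a log2 fold change of −0.35, SE 0.06, edgeR adjusted p = 0.0451). Here the sponge and scramble libraries, at 46.4 to 51.4 CPM, lay above both groups. Zfp367, a zinc finger protein, had 71.5, 69.9 and 75.0 CPM with overexpression and 92.3 and 94.3 CPM in the mutated control (a log2 fold change of −0.37, SE 0.06, edgeR adjusted p = 0.0330). For these 3 genes the overexpression group was the one that stood outside all other libraries.

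H2aw, a histone of the H2A family, had 4.98, 4.53 and 5.02 CPM with overexpression and 7.56 and 7.72 CPM in the mutated control, and the sponge and scramble libraries lay between, at 6.25 to 7.44 CPM. Its log2 fold change was −0.66 (SE 0.11, edgeR adjusted p = 0.0295). Slc7a11, the transport subunit of the cystine/glutamate exchanger, had 11.985, 15.7 and 17.5 CPM with overexpression and 40.6 and 43.1 CPM in the mutated control (a log2 fold change of −1.49, SE 0.16, edgeR adjusted p = 0.00632). Cd36, the scavenger receptor that takes up fatty acids, had 573, 566 and 609 CPM with overexpression and 759 and 750.1 CPM in the mutated control (a log2 fold change of −0.37, SE 0.06, edgeR adjusted p = 0.0300). In Slc7a11 and Cd36 the mutated control was the group apart: the sponge and scramble libraries, at 11.6 to 22.3 CPM and at 559.9 to 626 CPM, overlapped the overexpression libraries.

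**Figure D3:**
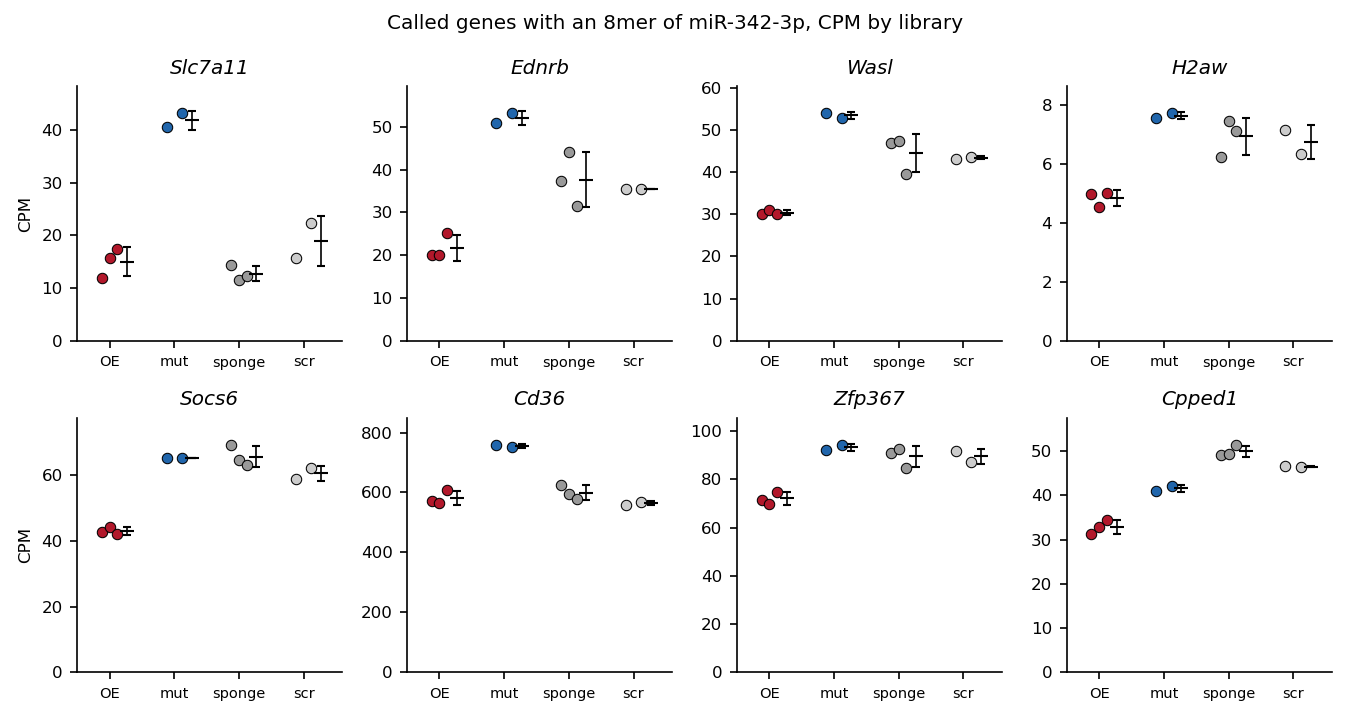
CPM in each library (points) with the mean and SD of each group (bars beside them) for the 8 called genes with an 8mer; OE is miR-342-3p overexpression (n = 3), mut the mutated control (n = 2), sponge the miR-342-3p sponge (n = 3) and scr the scramble sponge (n = 2). The overexpression points lie below all others for Ednrb, Wasl, H2aw, Socs6, Zfp367 and Cpped1; for Slc7a11 and Cd36 they lie with the sponge and scramble points.

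The 5 uncalled 8mer genes with the smallest p and a lower level all lay just past the threshold. Sema6d, a semaphorin, had a log2 fold change of −0.999 (SE 0.19, edgeR adjusted p = 0.0515) and Plxna4, a semaphorin receptor, −0.92 (SE 0.18, edgeR adjusted p = 0.0524). The protease gene Casp2 had −0.40 (SE 0.08, edgeR adjusted p = 0.0634), Zkscan1, a zinc finger gene with 3 such sites in its UTR, −0.45 (SE 0.09), and Gpalpp1, with 2, −0.48 (SE 0.10). Of 1271 genes whose best site was a 7mer-m8, 5 were called lower (0.393%) and 2 higher (0.157%). The 5 were Plekha1, which binds a phosphoinositide, Cnrip1, Cd300a, Narf and Vegfa, and the 2 higher were Map2k7 and Tgfbi. Of 1084 genes whose best site was a 7mer-A1, 7 were called lower (0.646%) and 2 higher (0.18%). Of 934 genes with a match to bases 2 to 8 of the other strand, miR-342-5p, 7 were called lower (0.749%) and 3 higher (0.321%). The like set for miR-342-3p, genes with an 8mer or 7mer-m8, held 1846 genes. Of these, 13 were called lower (0.704%) and 2 higher (0.108%).

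Over all 8mer genes the shift was small and varied with UTR length. Their median log2 fold change was −0.07, with 65.2% below 0. For genes without a site of any type these values were 0.03 and 42.6%. The UTRs of the 8mer genes were longer, however, with a median of 2680 against 866 bases. Within bins and by library the reference was a wider set, genes without an 8mer or 7mer-m8, which included genes with a 7mer-A1. In the longest of 5 bins of UTR length the median was −0.13 for 299 genes with an 8mer and −0.07 for 1495 reference genes. In the middle bin it was −0.02 for 75 genes and 0.03 for 2145 genes. In the shortest bin, with 14 such genes, it was 0.11 and 0.09. By library, the median of the reference genes was subtracted from that of the 8mer genes. The difference was −0.15 in overexpression replicate 1, −0.08 in replicate 2 and −0.04 in replicate 3. Within UTR length bins these differences were −0.04, −0.04 and −0.03.

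The 5 sponge and scramble libraries showed which group a called gene stood apart in. For 44 of the 85 called genes (51.8%) both mutated control libraries lay outside the range of all other 8 libraries while the overexpression libraries did not lie outside the other 7. For 19 (22.4%) the overexpression libraries alone stood apart, for 21 (24.7%) both groups did, and for Gng4, a G protein subunit that was 2.42-fold lower, neither. Over all tested genes these shares were 12.3% for the mutated control alone, 6.39% for overexpression alone and 0.526% for both. Called genes were chosen by the difference between these 2 groups, and such a difference tends to put a group apart. Nothing is therefore read from their shares against those of all tested genes. Counted whatever the other group did, the overexpression libraries stood apart in 6.92% of all tested genes and the mutated control libraries in 12.8%. By ordering alone, 2 libraries fall outside 8 others more easily than 3 fall outside 7 others. The shares of the mutated control and of overexpression therefore cannot be compared with each other. The type of vector cannot be told apart from the group that stood apart, since all 5 outside libraries carried sponge vectors.

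**Figure D4:**
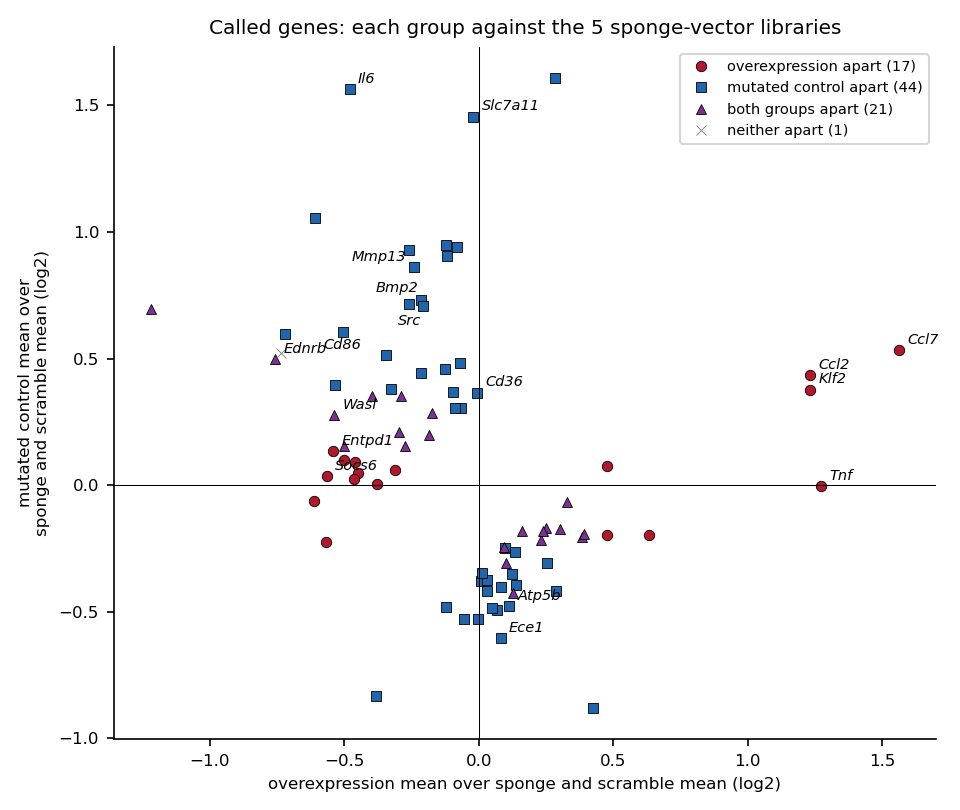
Log2 ratio of the overexpression mean (x axis) and of the mutated control mean (y axis) to the mean of the 5 sponge and scramble libraries, for 83 called genes; Mir342 and Eln, with libraries at 0 counts, are not drawn. Squares (44 genes, mutated control apart) spread along the y axis, circles (17 of the 19 genes with overexpression apart) along the x axis, and triangles (21 genes) have the groups on opposite sides.

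Genes in which overexpression alone stood apart included Klf2, Tnf and 2 monocyte chemokines, all higher. Klf2, a transcription factor of the Krüppel-like family, had 46.2, 50.8 and 46.4 CPM with overexpression and 24.0 and 28.8 CPM in the mutated control (a log2 fold change of 0.86, SE 0.11, edgeR adjusted p = 0.0119). The other libraries reached at most 22.7 CPM. Tnf, an inflammatory cytokine, had 73.9, 76.2 and 60.9 CPM with overexpression and 27.01 and 31.0 CPM in the mutated control, and 20.9 to 39.7 CPM elsewhere. Ccl2 and Ccl7, chemokines that attract monocytes, had 273 to 362 and 89.3 to 136 CPM with overexpression, against 173 to 182 and 49.9 to 57.5 CPM in the mutated control. The sponge and scramble libraries had 110 to 162 and 29.1 to 50.7 CPM. A group that lies between the others cannot count as apart. For Klf2 and Ccl2 both mutated control libraries lay between, above all sponge and scramble libraries. For Tnf, Ccl2 and Ccl7 the highest or second highest value was that of overexpression replicate 1, and the groups did not overlap. Ccl12, a further monocyte chemokine, had 23.0, 20.1 and 17.5 CPM with overexpression and 9.24 and 13.6 CPM in the mutated control but missed the threshold (log2 fold change 0.83, SE 0.19, edgeR adjusted p = 0.0809).

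Chemokines and cytokines were called in both directions. Of 20 chemokines tested, Ccl2 and Ccl7 were called higher and Ccl24, an eosinophil attractant, lower; 10 lay above 0 and the median log2 fold change was −0.02, against −0.01 for all genes. Ccl24 was at a low level, with 1.47, 0.747 and 1.59 CPM with overexpression and 3.53 and 4.55 CPM in the mutated control. The sponge and scramble libraries had 1.43 to 2.68 CPM. Of 35 cytokines and cytokine receptors 11 lay above 0, against 48.8% of all genes, and Tnf and Ifnar1 were called higher and Il6 lower. Il6 had 1.67, 1.42 and 1.79 CPM with overexpression and 5.21 and 8.30 CPM in the mutated control (a log2 fold change of −2.06, SE 0.26, edgeR adjusted p = 0.00996); the other 5 libraries had 1.09 to 3.83 CPM. Il13ra1, a receptor chain for interleukin-13, was just past the threshold with a log2 fold change of −0.63 (SE 0.12, edgeR adjusted p = 0.0542).

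Hpse, Entpd1, Adam8 and Gcat were among the other genes in which overexpression alone stood apart. Hpse, heparanase, which cleaves heparan sulfate, had 51.6, 51.3 and 53.7 CPM with overexpression and 79.7 and 78.6 CPM in the mutated control (a log2 fold change of −0.60, SE 0.06, edgeR adjusted p = 0.00560). The sponge and scramble libraries, at 68.2 to 82.9 CPM, lay around the mutated control. Entpd1, the ectonucleotidase CD39, which removes extracellular ATP, was 1.60-fold lower, and Cnrip1, a partner of cannabinoid receptors, 1.46-fold lower. Narf, Wdr66 and the zinc finger gene Zfp322a were 1.41-fold, 1.47-fold and 1.31-fold lower. Adam8, a membrane protease of myeloid cells, had 220.3, 229 and 222 CPM with overexpression and 162 and 176 CPM in the mutated control, a 1.32-fold rise. Gcat, which makes glycine from threonine in mitochondria, was 1.60-fold higher, and the unnamed transcript G530011O06Rik 1.79-fold higher.

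Eln, which encodes the matrix protein elastin, was nearly absent from all libraries. It had 1 count in the 3 overexpression libraries together and 21 in the mutated control libraries, a level 30.4-fold lower with overexpression (exact 95% interval 4.89 to 1257, counting error only). It was called (edgeR adjusted p = 0.0489), and the other 5 libraries had 6 to 20 counts each.

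In genes with both groups apart, overexpression and the mutated control lay on opposite sides of the other libraries. Itpk1, an inositol phosphate kinase, had 32.5, 31.1 and 29.5 CPM with overexpression and 20.9 and 21.4 CPM in the mutated control, around 27.7 to 29.3 CPM elsewhere (log2 fold change 0.56, SE 0.07, edgeR adjusted p = 0.00921). Gpr157, an orphan G protein-coupled receptor, had 14.5, 15.4 and 16.1 CPM with overexpression and 24.2 and 23.7 CPM in the mutated control (a log2 fold change of −0.65, SE 0.08, edgeR adjusted p = 0.00930). Mmp12, the macrophage elastase, had 16.8, 13.02 and 15.8 CPM with overexpression and 26.8 and 24.3 CPM in the mutated control. Higher with overexpression in the same way were Rbm38, an RNA-binding protein, 1.36-fold, Hs1bp3 1.33-fold, Dlgap4, a scaffold protein, 1.32-fold, Ddah2, of the dimethylarginine hydrolase family, 1.39-fold, and Med19, a Mediator subunit, 1.26-fold. Tgfbi, a secreted matrix protein induced by TGF-beta, had 640.5 to 693 CPM with overexpression and 496 to 515 CPM in the mutated control. Lower in the same way were Traf3ip3 1.42-fold, Pde8b, a cyclic AMP phosphodiesterase, 1.37-fold, Cd300a, an inhibitory receptor of myeloid cells, 1.35-fold, and Plekha1 1.30-fold.

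Several called receptors and ligands were genes in which the mutated control stood apart. Cd86, a costimulatory ligand for T cells, had 45.9, 43.1 and 50.2 CPM with overexpression and 78.7 and 89.3 CPM in the mutated control (a log2 fold change of −0.86, SE 0.11, edgeR adjusted p = 0.0119). Bmp2, a ligand of the TGF-beta family, had 13.3, 12.6 and 14.003 CPM with overexpression and 25.2 and 26.0 CPM in the mutated control (a log2 fold change of −0.95, SE 0.13, edgeR adjusted p = 0.0167). In both, the sponge and scramble libraries reached the range of the overexpression libraries. S1pr1, the sphingosine 1-phosphate receptor, was 1.499-fold lower. The growth factor Vegfa and its receptor Kdr were both lower, 2.16-fold and 1.38-fold; Vegfa had 50.4, 42.9 and 66.8 CPM with overexpression and 105 and 125 CPM in the mutated control. They were the called genes among 17 angiogenic growth factors and receptors, of which 7 lay above 0. For all tested genes these shares were 0.292% called lower and 48.8% above 0. Itgal, an integrin chain of leukocytes, was 1.60-fold lower.

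C-type lectin receptors, which bind sugars of microbes and dying cells, lay mostly below 0. Of 18 tested 4 lay above 0, with a median log2 fold change of −0.25, and Clec4n, dectin-2, was called. It had 18.2, 13.7 and 20.3 CPM with overexpression and 32.1 and 38.8 CPM in the mutated control (a log2 fold change of −1.03, SE 0.16, edgeR adjusted p = 0.0291). Clec7a, dectin-1, had 28.7, 23.7 and 39.2 CPM with overexpression and 66.1 and 88.0 CPM in the mutated control, with no overlap, but missed the threshold (log2 fold change −1.35, SE 0.27, edgeR adjusted p = 0.0603). Ly75, a lectin receptor of antigen-presenting cells, had a log2 fold change of −0.61 (SE 0.12, edgeR adjusted p = 0.0582). By library, the median log2 ratio of the list to the mutated control mean was −0.14, −0.34 and −0.18 in the overexpression libraries and between −0.20 and −0.10 in the sponge and scramble libraries.

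Genes used by osteoclasts and in macrophage fusion also lay mostly below 0. Of 23 tested 6 lay above 0, and Atp6v0d2 and Src were called lower, where 48.8% of all tested genes lay above 0 and 0.292% were called lower. Atp6v0d2, a proton pump subunit needed for cell fusion, had 3.65, 3.43 and 4.67 CPM with overexpression and 8.42 and 8.03 CPM in the mutated control (a log2 fold change of −1.09, SE 0.13, edgeR adjusted p = 0.00930). Src, a tyrosine kinase, had 4.88, 3.78 and 4.32 CPM with overexpression and 8.13 and 8.20 CPM in the mutated control (a log2 fold change of −0.91, SE 0.16, edgeR adjusted p = 0.0452). For both, the sponge and scramble libraries overlapped the overexpression libraries. No further subunit of the 18 tested in the proton pump was called; Atp6ap2, an accessory subunit, had 0.14 (SE 0.06, edgeR adjusted p = 0.223).

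Proteases and matrix enzymes were called in both directions: of 28 tested, Adam8 was higher and Hpse, Mmp12, Mmp13 and Tgm2 were lower, where 0.247% of all tested genes were called higher and 0.292% lower. Mmp13, a collagenase, had 17.2, 13.9 and 19.6 CPM with overexpression and 34.8 and 37.6 CPM in the mutated control. Tgm2, a transglutaminase that crosslinks proteins, had 29.8, 27.7 and 38.3 CPM with overexpression and 56.7 and 65.1 CPM in the mutated control. For Mmp13 and Tgm2 the sponge and scramble libraries, at 15.5 to 25.2 and 35.1 to 54.2 CPM, overlapped the overexpression libraries. Ptgs1, cyclooxygenase 1, had 24.4, 24.6 and 22.9 CPM with overexpression and 36.3 and 34.0 CPM in the mutated control (a log2 fold change of −0.55, SE 0.07, edgeR adjusted p = 0.00930). For Ptgs1 too the mutated control was the group apart, with the sponge and scramble libraries at 23.7 to 26.9 CPM. Gm13431, an unnamed neighbour of Ptgs1 on the same strand of chromosome 2, was 2.30-fold lower. In the deposited table it spans 36106733 to 36113046, against 36120438 to 36142284 for Ptgs1, so the 2 do not overlap. Strand was not used in the counting, so reads of genes that do overlap, antisense ones included, cannot be told apart.

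Sterol synthesis was the list with the highest median. All 20 tested enzymes had a log2 fold change above 0, with a median of 0.48, and Dhcr7 was called. Among all tested genes 48.8% lay above 0 and 0.247% were called higher. Dhcr7, which makes cholesterol in the last step of one branch, had 75.9, 81.4 and 66.3 CPM with overexpression and 45.3 and 46.1 CPM in the mutated control (a log2 fold change of 0.71, SE 0.13, edgeR adjusted p = 0.0489). Tm7sf2, a sterol reductase, had 13.7, 13.2 and 11.5 CPM with overexpression and 9.66 and 8.73 CPM in the mutated control, and Hmgcs1, which makes HMG-CoA, 132, 135 and 109 against 94.0 and 95.1 CPM. Neither passed, with log2 fold changes of 0.49 (SE 0.11, edgeR adjusted p = 0.0858) and 0.41 (SE 0.14, edgeR adjusted p = 0.187). By library, the list's median log2 ratio to the mutated control mean was 0.49, 0.58 and 0.27 in overexpression replicates 1, 2 and 3. It was 0.09, −0.26 and 0.29 in the sponge libraries and −0.07 and 0.03 in the scramble libraries, so sponge replicate 3 overlapped the overexpression libraries.

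Sterol enzymes are known to be switched on together by SREBP-2, which binds sterol response elements beside the CCAAT-binding factor NF-Y. In RefSeq promoters from 250 bases before to 50 after the start (GRCm38.p6), 15 of the 20 enzymes had an entry. The letters CCAAT, on either strand, stood in 14 of the 15 (93.3%), against 42.9% of 10514 tested genes with an entry. A gene with several promoters counted if any of them held the letters. CCAAT also stood in 8 of 11 genes of sterol sensing and uptake (72.7%). It stood in 12 of 32 genes called higher (37.5%) and in 16 of 30 called lower (53.3%). The part of these motifs in the rise was not tested. The sterol response element TCACNCCAC, on either strand, stood in 0 of those 11 and 0 of those 32 genes. Among the 15 enzymes it stood in 1 (6.67%), against 1.37% of the tested genes with an entry. That 1 was the promoter of Hmgcs1 (chr13:119690101-119690400, plus strand), printed to show how the motifs are placed, with both in capitals; ATTGG is CCAAT on the other strand, and no motif overlaps another.
Hmgcs1: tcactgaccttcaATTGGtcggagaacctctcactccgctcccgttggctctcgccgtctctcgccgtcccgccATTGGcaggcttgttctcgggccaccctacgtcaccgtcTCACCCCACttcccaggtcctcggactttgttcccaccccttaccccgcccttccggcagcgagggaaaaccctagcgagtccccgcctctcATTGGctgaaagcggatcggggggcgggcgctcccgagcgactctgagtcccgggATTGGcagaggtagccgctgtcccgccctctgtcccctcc

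Other lipid genes lay on both sides of 0. In the list of sterol sensing and uptake 8 of 14 lay above 0 and 0 were called; Mbtps2, a protease that activates SREBP, had −0.50 (SE 0.12) and Soat1, which esterifies cholesterol, −0.30 (SE 0.08). Of 9 genes of cholesterol efflux 3 lay above 0, and the exporters Abca1 and Abcg1 had −0.68 (SE 0.23) and −0.15 (SE 0.08). Of 13 genes of lipid uptake and storage Cd36 was called, and Lpl, lipoprotein lipase, had 411, 305 and 428 CPM with overexpression and 577 and 659.8 CPM in the mutated control (a log2 fold change of −0.70, SE 0.14, edgeR adjusted p = 0.0603). Of 13 genes of fatty acid synthesis 10 lay above 0 and 0 were called; the desaturase Scd1 had −1.29 (SE 0.33) at under 1.1 CPM and the citrate carrier Slc25a1 0.32 (SE 0.10). Abcb4, a phospholipid exporter, was 1.31-fold lower.

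**Figure D5:**
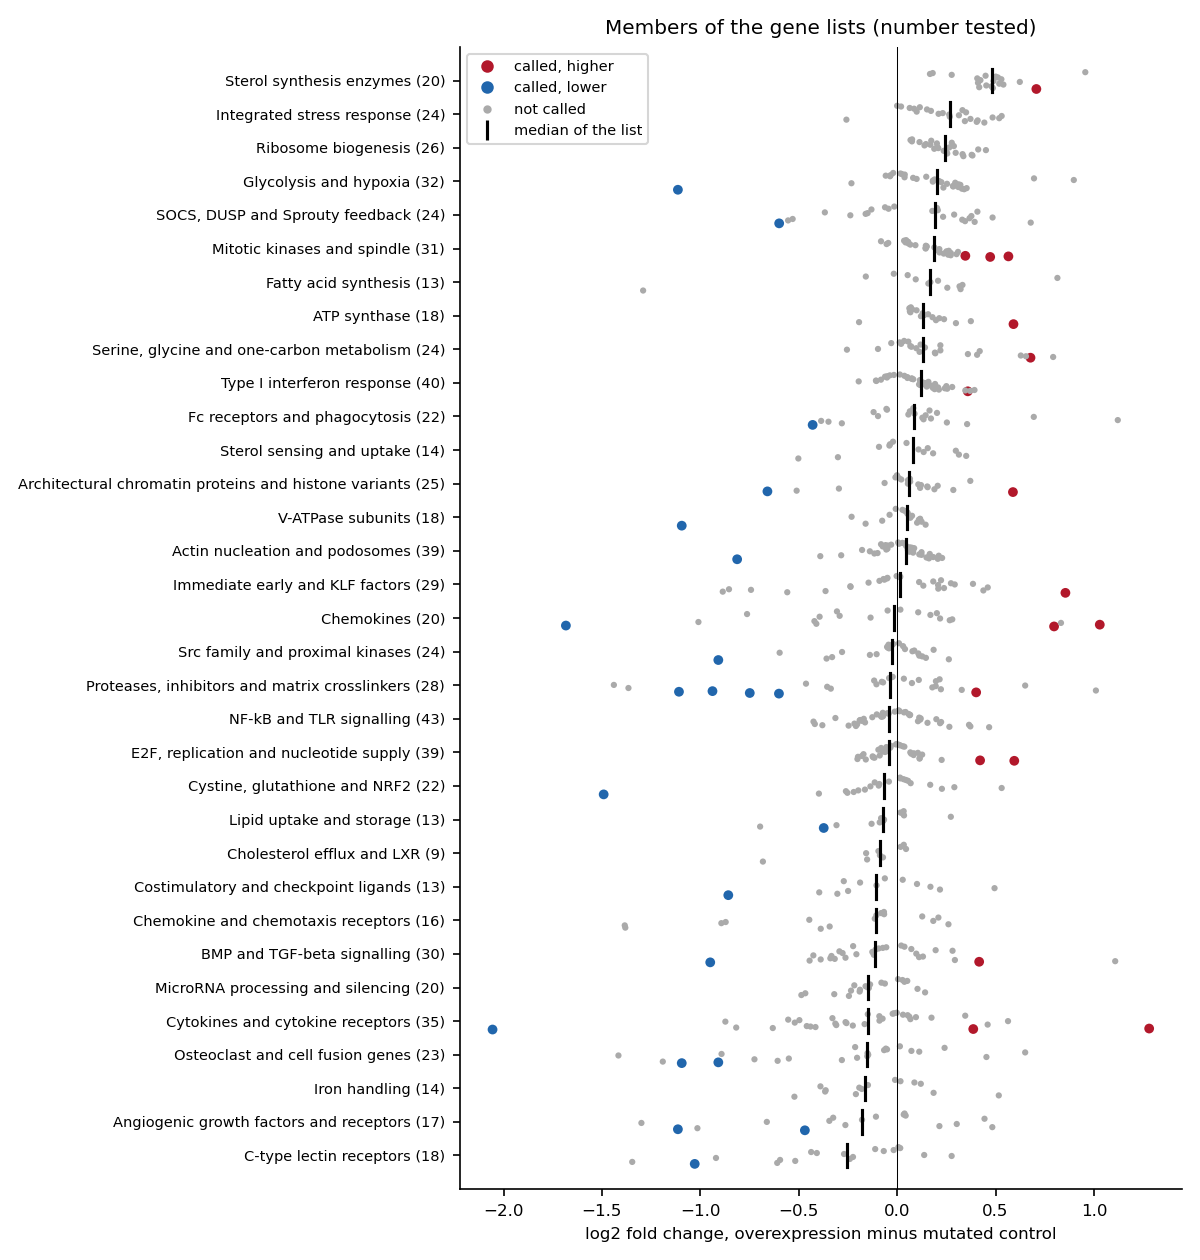
Log2 fold change (overexpression minus mutated control, x axis) of every tested member of the lists with at least 9 tested genes, ordered by the list's median (black bar); called members are red or blue. Sterol synthesis, at the top, has all 20 members above 0, and C-type lectin receptors, at the bottom, have 4 of 18.

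In the lists of ATP synthase, ribosome biogenesis, the integrated stress response, serine and one-carbon metabolism, and glycolysis and hypoxia most members lay above 0, and 0 or 1 were called in each. Of 18 genes of ATP synthase 17 lay above 0, and Atp5b, the catalytic beta subunit, was called, with 845, 804 and 733 CPM with overexpression and 531 and 523 CPM in the mutated control (a log2 fold change of 0.59, SE 0.09, edgeR adjusted p = 0.0252). For Atp5b the sponge and scramble libraries, at 680 to 827 CPM, overlapped the overexpression libraries. The median of that list was 0.29, 0.11 and −0.02 in overexpression replicates 1, 2 and 3, and its median gene length was 2222 bases, against 3661 for all tested genes. All 26 genes of ribosome biogenesis lay above 0, with a median of 0.24, and 0 were called by edgeR, while 13 had an unadjusted p under 0.05, as had 18.2% of all tested genes; Polr1b, a subunit of RNA polymerase I, had 0.34 (SE 0.09, edgeR adjusted p = 0.120) and Gar1 0.38 (SE 0.11). Of 24 genes of the integrated stress response 22 lay above 0 and 0 were called, with 8 at an unadjusted p under 0.05; the tRNA synthetases Yars and Cars had 0.44 (SE 0.15) and 0.40 (SE 0.14). By library, the median log2 ratio to the mutated control mean was 0.36, 0.35 and 0.06 for the stress response in overexpression replicates 1, 2 and 3, and 0.31, 0.29 and 0.10 for ribosome biogenesis. Sponge replicate 3 had 0.15 for the stress response, above overexpression replicate 3, and 0.07 for ribosome biogenesis. Of 24 genes of serine, glycine and one-carbon metabolism 21 lay above 0 and Gcat was called; Mthfd2 had 187, 186 and 151 CPM with overexpression and 101 CPM in each mutated control library (log2 fold change 0.79, SE 0.18, edgeR adjusted p = 0.0809). Of 32 genes of glycolysis and hypoxia 26 lay above 0, and the called member, Vegfa, was lower; P4ha1, a collagen prolyl hydroxylase, had 0.34 (SE 0.09). Btd, which recycles the cofactor biotin, had 35.7, 33.7 and 35.1 CPM with overexpression and 24.4 and 24.0 CPM in the mutated control (a log2 fold change of 0.53, SE 0.07, edgeR adjusted p = 0.0167). For Btd the sponge and scramble libraries, at 33.0 to 39.1 CPM, overlapped the overexpression libraries.

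Genes of mitosis lay above 0 as a group. Of 31 genes of mitotic kinases and the spindle 28 did, and Aurkb, Ube2c and Kif2c were called. Over all tested genes 48.8% lay above 0 and 0.247% were called higher. Aurkb, the kinase of the chromosomal passenger complex, had 95.2, 87.4 and 93.8 CPM with overexpression and 68.6 and 64.1 CPM in the mutated control (a log2 fold change of 0.47, SE 0.07, edgeR adjusted p = 0.0167). Ube2c, the ubiquitin-conjugating enzyme of the anaphase-promoting complex, was 1.48-fold higher and Kif2c, a microtubule depolymerase, 1.27-fold higher. The median of the list was 0.19 in each overexpression library, and it was 0.17 to 0.21 in the sponge libraries and 0.16 and 0.04 in the scramble libraries, so the mutated control was low beside both. In the same direction were Cks1b, a subunit of cyclin-dependent kinases, at 1.45-fold, Trip13, a spindle checkpoint ATPase, at 1.27-fold, Tubb5, a beta-tubulin, at 1.32-fold, the centriole proteins Poc1a and Hyls1 at 1.46-fold and 1.39-fold, and Champ1, which acts at kinetochores, at 1.32-fold.

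Of 39 genes of replication and nucleotide supply 15 lay above 0. E2f5, an E2F factor of the repressor type, and Rrm2, the ribonucleotide reductase subunit, were called higher. E2f5 had 10.03, 9.43 and 8.99 CPM with overexpression and 6.28 and 6.31 CPM in the mutated control (a log2 fold change of 0.60, SE 0.09, edgeR adjusted p = 0.0241), and Rrm2 69.2 to 74.8 CPM against 53.5 to 55.4 CPM. Among chromatin proteins, Ssrp1, a subunit of the histone chaperone FACT, had 328, 313 and 288 CPM with overexpression and 223 and 219 CPM in the mutated control (a log2 fold change of 0.49, SE 0.07, edgeR adjusted p = 0.0167). For Ssrp1 the sponge and scramble libraries, at 284 to 305 CPM, overlapped the overexpression libraries. Hmga1, an architectural chromatin protein whose reads near-identical copies may share, had 86.6, 75.3 and 72.6 CPM with overexpression and 51.6 and 52.5 CPM in the mutated control. Of 25 architectural chromatin proteins and histone variants Hmga1 was called higher and H2aw lower, and H1f2, a linker histone, had −0.51 (SE 0.10, edgeR adjusted p = 0.0501).

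Interferon genes showed small differences in which the mutated control was the low group. Ifnar1, a chain of the type I interferon receptor, had 126, 134 and 133 CPM with overexpression and 98.4 and 102 CPM in the mutated control (a log2 fold change of 0.39, SE 0.06, edgeR adjusted p = 0.0221); the other 5 libraries had 128 to 133 CPM. Of 40 interferon response genes 31 lay above 0, Ifit1 was called with a 1.28-fold rise, and Mx2 was just past the threshold (log2 fold change 0.37, SE 0.07, edgeR adjusted p = 0.0524). The median of the list was 0.16, 0.08 and 0.11 in the overexpression libraries, against 0.13 to 0.22 in the sponge and scramble libraries. Tgtp2, a GTPase of the interferon-inducible family with close copies, was 1.28-fold higher than in the mutated control but below the other 5 libraries, at 74.6 to 79.3 CPM with overexpression and 82.0 to 85.3 CPM there. Pira12, of the paired immunoglobulin-like receptors, was 1.36-fold higher and likewise lay below the 5 libraries. Its relatives share sequence, so its reads may be split among them.

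Map2k7 and Marchf9 were called higher and Dnajb14, Lhfpl2 and Asb4 lower, and none of these 5 was on a list. In all 5 the mutated control was the group apart. Map2k7, the kinase that activates JNK, had 56.3, 50.9 and 50.02 CPM with overexpression and 40.0 and 36.8 CPM in the mutated control, a 1.37-fold rise. Marchf9, a membrane-bound ubiquitin ligase, had 12.9, 12.3 and 12.6 CPM with overexpression and 8.72 and 8.35 CPM in the mutated control (a log2 fold change of 0.56, SE 0.08, edgeR adjusted p = 0.0167). Dnajb14, a co-chaperone, was 1.63-fold lower, Lhfpl2, a membrane protein, 1.29-fold lower, and Asb4, a SOCS-box protein at under 1 CPM, 2.44-fold lower. Of 24 SOCS, DUSP and Sprouty genes Socs6 was called; the ERK phosphatase Dusp6 had 199, 227 and 185 CPM with overexpression and 116 and 138 CPM in the mutated control but missed the threshold (log2 fold change 0.68, SE 0.14, edgeR adjusted p = 0.0719).

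Of 30 genes of BMP and TGF-beta signalling 11 lay above 0, and Tgfbi was called higher and Bmp2 lower. Counts at an unadjusted p under 0.05 in the lists that follow stand against 18.2% of all tested genes. Of 43 genes of NF-kB and Toll-like receptor signalling 20 lay above 0 and 0 were called by edgeR, while 13 had an unadjusted p under 0.05; Nfkbid, an atypical inhibitor of NF-kB, had 0.47 (SE 0.11, edgeR adjusted p = 0.0858) and Traf1 0.27 (SE 0.07). Of 16 chemotaxis receptors 4 lay above 0 and 0 were called, with 7 at an unadjusted p under 0.05; Ptafr had −0.39 (SE 0.10) and Ccr3, at about 1 CPM or less, −1.38 (SE 0.42). Of 14 genes of iron handling 0 were called and 8 had an unadjusted p under 0.05; the iron exporter Slc40a1 had 741, 762 and 907 CPM with overexpression and 1166 and 1140.5 CPM in the mutated control (a log2 fold change of −0.52, SE 0.11, edgeR adjusted p = 0.0667), and the importer Slc39a14 had 0.52 (SE 0.11). Of 20 genes of microRNA processing and silencing 0 were called and 3 had an unadjusted p under 0.05; the deadenylase subunit Pan2 had −0.24 (SE 0.07) and Tnrc6b −0.49 (SE 0.16). Among 29 immediate early and KLF genes Klf2 was called and Fos had −0.56 (SE 0.14). Srxn1, a target of NRF2, had −0.40 (SE 0.08), Cd274, the ligand PD-L1, −0.30 (SE 0.08), Id1, a BMP target, 1.11 (SE 0.26), and Stab1, a scavenger receptor, 0.36 (SE 0.08), all uncalled. The chemokine Ccl9 had −0.41 (SE 0.08), the cytokine Osm −0.82 (SE 0.20) and the growth factor Pdgfc −1.01 (SE 0.22). Ccnb1, a mitotic cyclin, had 0.27 (SE 0.06), Atp5c1, a subunit of ATP synthase, 0.30 (SE 0.08), and Itgam, an integrin chain of myeloid cells, 0.25 (SE 0.08). None of these 6 passed the test, with edgeR adjusted p between 0.0623 and 0.159. In bulk RNA, fewer cells with a transcript and less of it per cell cannot be told apart. In all, 38 of the 797 distinct genes tested from the lists, marker lists included, were called (4.77%), against 0.539% of all tested genes; the lists were chosen with earlier results of these data known, so nothing is read from that share.

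The called entries without a gene function were Rn18s-rs5, a ribosomal RNA sequence, and 5 unnamed transcripts. Rn18s-rs5 had 557, 563 and 602 CPM with overexpression and 1320.3 and 938 CPM in the mutated control. ENSMUSG00000120878 was 3.81-fold lower with overexpression, Gm19410 2.52-fold lower and 2900041M22Rik 2.56-fold higher, each at under 4 CPM in all libraries of the comparison.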

How the data were processed

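The authors deposited 1 table of raw read counts, as whole numbers for each gene. Per the file headers, they counted with featureCounts 2.0.1 against GENCODE vM30, without using strand; per the submitters' processing notes, STAR 2.7.6a was used and the build was GRCm38. Coordinates of the deposited table belong to its annotation and are not mixed with those of GRCm38. The 5 libraries compared have columns of their own. In the table sponge replicate 3 and a scramble library share 1 field, which was split by likelihood, and 51 of 55866 genes were left out.

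The test across genes was edgeR 4.0.16 (quasi-likelihood, robust, TMM, filter by group) in 1 fit of all 10 libraries with 4 groups, and Benjamini-Hochberg values are over the 15767 genes tested. SE is the size of the log2 fold change over the square root of F, and CPM uses TMM factors. Seed sites were read in the longest 3′ UTR per gene of GENCODE vM21 (11916 genes matched by symbol, 157 by older symbol). Alternatives were DESeq2 1.42.0, limma-voom 3.58.1, other scaling and filters, fewer libraries, a replicate block, gene length offsets and the scramble group as control. Named genes were the 20 called genes with the smallest p in each direction, all called genes by fold, called list members or the 2 with the smallest p, and 8mer genes. The members and the lists were chosen with earlier results of these data known. A few genes that meet this rule are not reported here.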

Additional observations from a re-analysis of the deposited data

How the results depend on the processing

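With the mutated control as control, the 85 called genes kept their direction in each setting that tested them; their number did not keep. DESeq2 called 500 genes, 227 higher and 273 lower, with 106 list members; without a filter on low counts edgeR called 1390, 540 higher and 850 lower, with 217 list members. With only the 5 libraries it called 34, 13 higher and 21 lower, with 21 list members. With gene length offsets it called 207, 103 higher and 104 lower, with 58 list members. Leaving out 1 library at a time gave 0 to 279 calls, 0 to 114 higher and 0 to 165 lower, with 0 to 69 list members; the 279 came without overexpression replicate 3, 252 without sponge replicate 3, 143 without sponge replicate 2, 58 without overexpression replicate 1, 31 without sponge replicate 1, 24 without either scramble library and 0 without either mutated control library. limma-voom called 93, size factors of the RLE kind 85, a minimum mean of 1 CPM 78 and the 8 intact libraries 78. The cause of these differences was not tested.

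With the scramble group in place of the mutated control edgeR called 7 genes, 5 higher and 2 lower, with 4 list members; Mir342, Klf2, Ccl2, Ccl7, Socs6 and Cpped1 were among the 85. There the log2 fold change of Cd36 was 0.0448, of Tgtp2 −0.13, of Pira12 −0.37, of Ifit1 −0.0628, of Ccr3 0.36, of Lpl 0.0654, of Traf1 −0.11 and of Atp6ap2 −0.0331, all of the opposite sign to those against the mutated control.

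The seed-site genes (8mer or 7mer-m8) had a median log2 fold change that, minus that of genes without such a site, was −0.07. The difference was −0.0162 within 5 bins of UTR length, and −0.09 to −0.03 with 1 library of the comparison left out. Deviations from the group mean in same-numbered overexpression and mutated control libraries correlated at −0.03 and 0.01 by title and at −0.01 and −0.05 by column name. The deviations of the 2 mutated control libraries are opposites of each other, so these values cannot decide whether the libraries were paired. With a replicate block of the titles or of the column names edgeR called 0 genes, 0 higher and 0 lower, with 0 list members, and 1807 and 1565 genes had an unadjusted p under 0.05. With gene length offsets and the block of the titles it called 7, 2 higher and 5 lower, with 6 list members.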
